A study of Homo sapiens with 6 samples.

Results

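The 35 genes described here are the subunits and inhibitors of NF-kB and the inflammatory mediators that are its classical targets: 5 subunits, 5 inhibitors, 3 signalling targets, 5 cytokines, 11 chemokines and 6 surface proteins or enzymes, of 35357 genes in the table. They were taken as a list of gene names, not by their values, and estimated reads were summed over every transcript of each gene. The RNA came from EoL-1, an established human cell line from an eosinophilic leukaemia, edited with CRISPR/Cas9. One group of 3 libraries was labelled JUN knockout, and the other group of 3 was labelled ATF3/JUN double knockout, so every library carried the JUN edit and the comparison addressed what editing ATF3 added to it. No unedited EoL-1 sample was among those analysed. The labels name no inflammatory stimulus.

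NF-kB is a family of dimeric transcription factors held in the cytoplasm by inhibitors of the IkB family. Signals from receptors for TNF, IL-1 and microbial products activate the IkB kinases, the inhibitors are degraded, and the dimers enter the nucleus and switch on cytokine, chemokine and adhesion genes as well as their own inhibitors. JUN and ATF3 belong to the AP-1 and ATF families of leucine zipper factors, which share many promoters with NF-kB, and ATF3 is known in macrophages as a brake on inflammatory genes.

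The share of these genes whose promoter holds a textbook NF-kB motif was read from the RefSeq promoters of GRCh38.p14, each 300 bases long from 250 before to 50 after a transcription start. Promoters of 29 of the 35 genes were matched, 46 promoters in all, and RELB, NFKBIE, CCL2, CCL4, CCL5 and CD40 had no entry. The NF-kB consensus, searched on both strands, occurred in 18 of the 46 promoters (39.1%), in 16 genes, against 11.3% of all 35116 promoters. The AP-1 motif TGANTCA, searched likewise, was in 5 of the 46 promoters (10.9%) against 7.71% of all. The ATF/CRE motif TGACGTCA was in 0 of the 46 (1.85% of all). A match describes the letters in the window and does not show that a factor binds there. The promoters below show the motif in an inhibitor that is the standard NF-kB target (NFKBIA), in a second inhibitor (TNFAIP3), in the chemokine with the largest difference between the groups (CXCL10) and in a chemokine with no reads in any library (CXCL1). The last 3 were chosen after their values were seen. Each is printed 5′ to 3′ on the gene's own strand, with the NF-kB consensus in capitals.
NFKBIA, chr14:35404700-35404999, minus strand: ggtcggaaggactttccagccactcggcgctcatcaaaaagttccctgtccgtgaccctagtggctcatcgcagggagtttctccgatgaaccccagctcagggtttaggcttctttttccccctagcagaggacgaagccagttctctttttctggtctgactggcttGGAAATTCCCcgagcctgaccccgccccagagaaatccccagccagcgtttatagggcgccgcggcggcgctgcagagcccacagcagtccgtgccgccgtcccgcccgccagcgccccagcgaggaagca
TNFAIP3, chr6:137867009-137867308, plus strand: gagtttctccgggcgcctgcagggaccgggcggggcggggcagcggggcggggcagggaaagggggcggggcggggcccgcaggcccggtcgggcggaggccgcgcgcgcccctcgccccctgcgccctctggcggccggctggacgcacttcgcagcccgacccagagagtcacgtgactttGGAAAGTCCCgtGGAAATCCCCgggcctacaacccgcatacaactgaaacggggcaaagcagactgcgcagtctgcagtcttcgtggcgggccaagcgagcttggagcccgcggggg
CXCL10, chr4:76023448-76023747, minus strand: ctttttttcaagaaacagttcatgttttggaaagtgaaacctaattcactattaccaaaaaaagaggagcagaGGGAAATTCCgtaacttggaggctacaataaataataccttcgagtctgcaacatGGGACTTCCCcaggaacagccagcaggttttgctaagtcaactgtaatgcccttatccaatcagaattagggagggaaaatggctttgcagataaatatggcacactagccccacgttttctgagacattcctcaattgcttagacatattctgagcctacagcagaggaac
CXCL1, chr4:73869143-73869442, plus strand: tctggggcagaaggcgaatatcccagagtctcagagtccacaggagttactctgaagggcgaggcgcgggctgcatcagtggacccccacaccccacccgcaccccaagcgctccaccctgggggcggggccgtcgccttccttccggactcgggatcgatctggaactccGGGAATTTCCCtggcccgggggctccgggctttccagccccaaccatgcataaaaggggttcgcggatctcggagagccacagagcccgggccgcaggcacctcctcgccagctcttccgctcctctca
NFKBIA had 1 match, GGAAATTCCC, which began 81 bases before the start. TNFAIP3 had 2 matches a few bases apart, at 67 and 55 bases before the start, and CXCL10 had 2, at 177 and 122. The 2 matches of CXCL1, at 79 and 78 bases before the start, overlap each other in a single run of 11 capitals. The consensus thus stood before genes with at least 1 CPM in every library (NFKBIA and TNFAIP3) and before CXCL10, which reached that level in some. It also stood before CXCL1, which was not read at all.

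**Figure D1:**
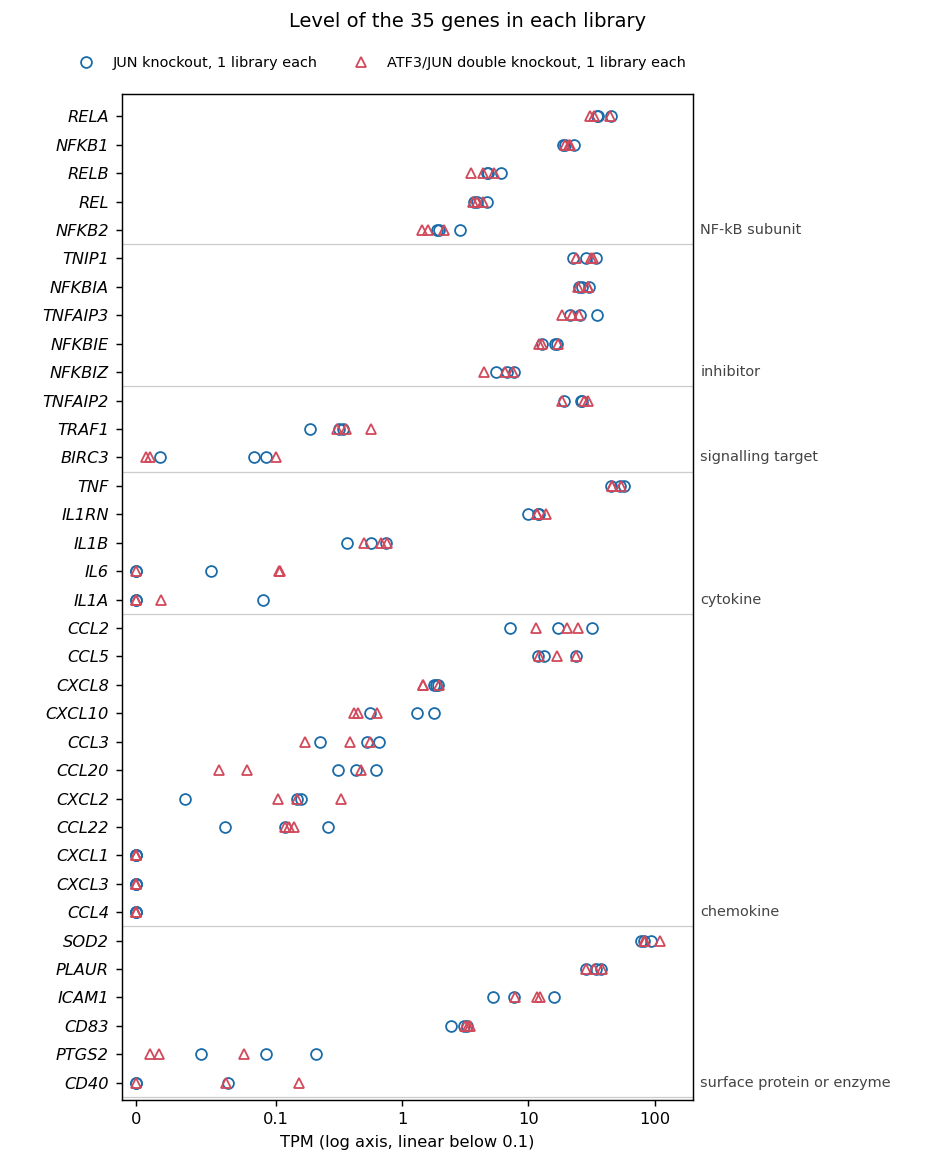
TPM (abundance scaled for transcript length and library size, on a log axis that is linear below 0.1) of the 35 genes, with 1 circle per JUN knockout library and 1 triangle per double knockout library, grouped by role. The levels span SOD2 at a mean of 88.3 TPM to CXCL1, CXCL3 and CCL4 at 0, and the symbols of the groups lie among each other.

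The libraries held 26146998 to 29567970 estimated reads. Of 9 eosinophil markers, EPX, CLC, IL5RA and GATA1 had 0 reads in all 6 libraries, while PDGFRA and FIP1L1, the genes joined in the fusion that this line is known for, were expressed, so the labelled cell type had little support from mature eosinophil genes. The targeted genes kept reads: ATF3 was at 19.6, 13.3 and 8.65 CPM (counts scaled to a common library total) in the JUN knockout and 12.7, 9.76 and 7.42 CPM in the double knockout, and JUN lay between 12.9 and 26.4 CPM over the 6 libraries. The labels do not say whether a replicate was a separate clone or a repeat culture, although file names share a clone code within a number. The p-values therefore measure the spread between these libraries. Same-numbered libraries of the groups deviated together from their group means, least so in number 2 (correlation 0.15). Comparisons within a number are therefore given as pairs.

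Without a labelled stimulus the EoL-1 cells expressed the subunits, the inhibitors and a small set of mediators, and most chemokines and cytokines were close to absent. At least 1 CPM was reached in all 6 libraries by 20 of the 35 genes, in some libraries by 3 (TRAF1, IL1B and CXCL10) and in no library by 12. Per transcript length, the highest mean levels were those of SOD2 (88.3 TPM), the mitochondrial superoxide dismutase, TNF (50.0 TPM), the founding cytokine of the pathway, RELA (37.3 TPM), PLAUR (33.5 TPM), TNIP1 (29 TPM) and NFKBIA (27.6 TPM). PLAUR is the urokinase receptor. In bulk RNA, fewer cells expressing a gene and less RNA per cell cannot be told apart.

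A gene was called silent in a library when it had fewer than 10 estimated reads there. By this level 10 of the 35 genes were silent in all 6 libraries, 2 in some (CCL3 and CCL22) and 23 in none. The 10 were BIRC3, an inhibitor of apoptosis, the cytokines IL1A and IL6, the chemokines CXCL1, CXCL2, CXCL3, CCL4 and CCL20, the co-stimulatory receptor CD40, and PTGS2, the inducible cyclooxygenase. CXCL1, CXCL3 and CCL4 had 0 reads in every library, which allows up to 0.103 to 0.117 CPM in a library (3 reads, counting error only). PTGS2 was highest among the 10, at 7 reads in JUN knockout replicate 3 and 9 in double knockout replicate 3, against 1 or 2 reads in the other 4 libraries. IL6 reached 2 reads at most and IL1A 5. CCL3, the chemokine MIP-1 alpha, lay at the limit itself, with 12, 9 and 9 reads in the JUN knockout and 6, 6 and 10 in the double knockout. CCL22 had 20, 10 and 5 reads in the JUN knockout and 11, 9 and 11 in the double knockout. The same 10 genes were thus silent in both genotypes, and CCL3 and CCL22 had libraries on either side of the limit in each.

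CCL5 (RANTES), a chemokine for T cells, eosinophils and monocytes, is on chromosome 17 at 35871491 to 35880793, minus strand (GRCh38). It was read in all 6 libraries, but not on the same transcript. Its main transcript on the primary assembly, CCL5-201 (1352 bases), had 0, 483 and 416 estimated reads in JUN knockout replicates 1, 2 and 3 and 692, 0 and 435 in the double knockout. In the 2 libraries at 0, the reads were instead on a transcript of 1365 bases outside the primary assembly (ENST00000613606), which GENCODE's symbol table names CCL5: 778 in JUN knockout replicate 1, 456 in double knockout replicate 2, and 0 in the other 4 libraries. A second copy of 719 bases held 0 reads in the JUN knockout and 27, 38 and 7 in the double knockout. The copies carried 39.2% of all CCL5 reads. Each library therefore held its CCL5 reads almost wholly on one transcript or the other, and the 2 libraries that used the copy belonged to different genotypes and different replicate numbers. A table of primary-assembly transcripts alone lists CCL5 at 0 in those 2 libraries. Why Salmon placed the reads on one copy in some libraries was not tested, and the sequence of the copy was not used here.

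**Figure D2:**
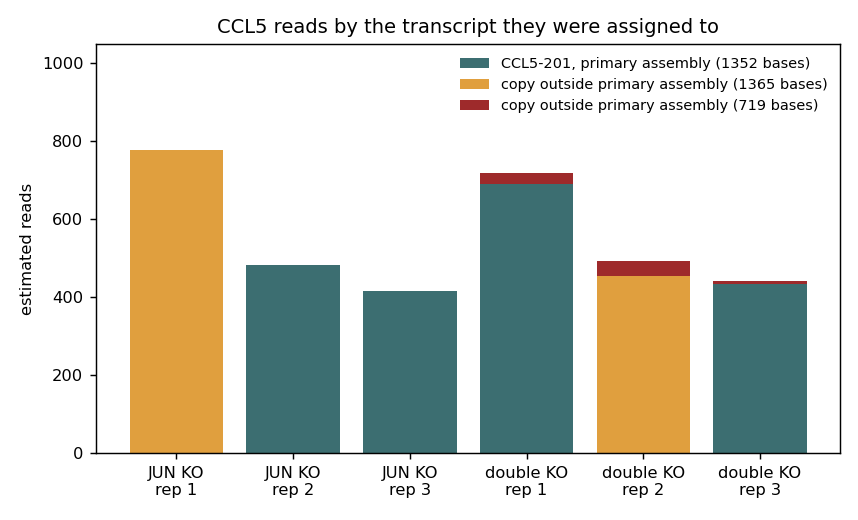
Estimated CCL5 reads in each of the 6 libraries (y axis), stacked by the transcript they were assigned to. JUN knockout replicate 1 (778 reads) and double knockout replicate 2 (456 reads) lie on the copy outside the primary assembly (ENST00000613606), and the other 4 libraries lie on CCL5-201.

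With all transcripts summed, CCL5 was at 27.8, 16.9 and 15.6 CPM in JUN knockout replicates 1, 2 and 3 and at 28.1, 18.2 and 15.2 CPM in the double knockout. The groups overlapped almost number by number, with replicate 1 the highest in each. The log2 fold change, double knockout minus JUN knockout throughout, was 0.03 (SE 0.30, 95% interval -0.67 to 0.73, edgeR adjusted p = 0.995), and 0.03 with an SE of 0.10 with the replicate number as a block. From the primary assembly alone it was 0.37 (SE 1.59, adjusted p = 0.987), so the standard error was much smaller once the copies were added. CCL5 is also a product of T and NK cells, and of their markers CD3E, CD2, CD8A, GZMB and GZMA were at 0 reads in every library, while NKG7 and KLRD1 were expressed at 1 CPM or more in all 6. PRF1, which encodes perforin, was at 7.43, 1.47 and 0.898 CPM in JUN knockout replicates 1, 2 and 3 and 4.8, 2.98 and 0.721 CPM in the double knockout, in the same order of the numbers as CCL5, and its number term in the blocked edgeR fit had an adjusted p of 0.0324. The summed level of the 11 markers was 89.6 to 91.3 CPM in the JUN knockout and 99.6 to 114 CPM in the double knockout, nearly all of it NKG7 (80.3 to 111 CPM). The groups did not overlap in NKG7, which was higher in the double knockout, as 6.25% of all genes were. Its edgeR adjusted p between the genotypes was 0.817. NKG7 was highest in number 3 of each genotype (88.5 and 111 CPM), where CCL5 was lowest. KLRD1 was lowest in number 3 of the JUN knockout (1.53 CPM) but in number 1 of the double knockout (1.48 CPM). Their number terms in the blocked edgeR fit had adjusted p of 0.584 for NKG7 and 0.848 for KLRD1. The part of these markers in the CCL5 level was not tested. Among the other mediators, copies outside the primary assembly held 9 reads of CCL3 and none of TNF or CCL4.

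Between the genotypes, 0 of the 24 genes with enough reads to be tested passed edgeR's quasi-likelihood test at an adjusted p of 0.05, where 0.0% of 13105 genes passed. The lowest adjusted p among the 24 was 0.842. With DESeq2, which called 0.473% of all genes, 0 of the 24 passed. Of the 24, 10 were higher and 14 lower in the double knockout, with a median log2 fold change of -0.03, beside 0.00 over all genes tested, of which 50.9% were higher. In 0 of the 24 were all double knockout libraries above all JUN knockout libraries (6.25% of all genes), and in 0 were all below (5.94% of all genes). The 11 untested genes (BIRC3, IL1A, IL6, CXCL1, CXCL2, CXCL3, CCL3, CCL4, CCL20, CD40 and PTGS2) had at most 12 reads in any library, and a difference in them was not detectable at this depth. The 24 are therefore the part of the list with enough reads to test and do not stand for all 35.

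**Figure D3:**
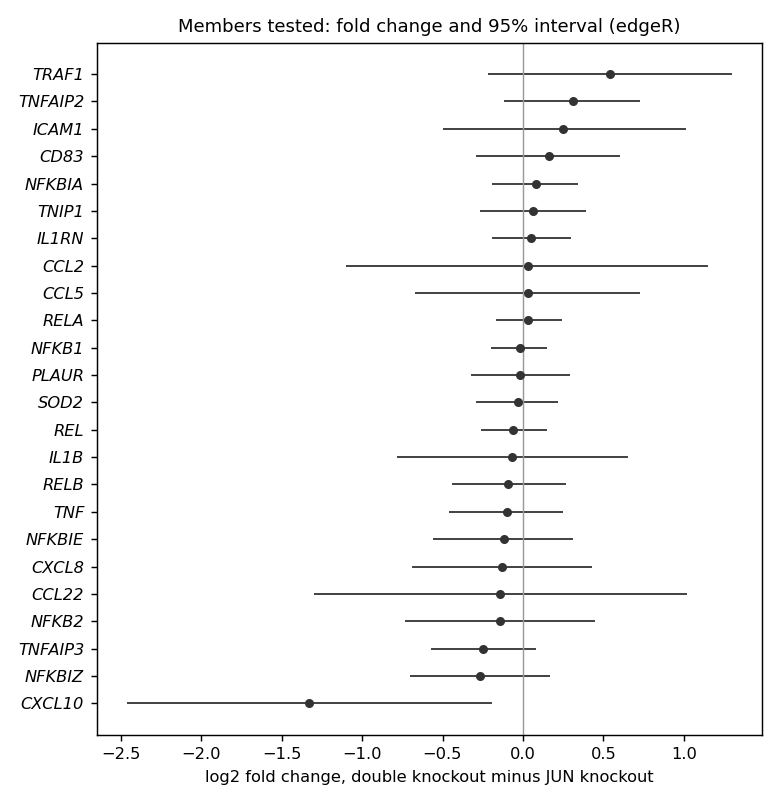
Log2 fold change of the double knockout against the JUN knockout for the 24 genes tested (x axis), with points for edgeR's estimate and bars for its 95% interval. The interval of CXCL10 (-2.46 to -0.19) lies below 0, and the other 23 include 0.

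The 5 subunits form the dimers, RELA, REL and RELB carrying their own activation domains and NFKB1 and NFKB2 encoding precursors of the p50 and p52 partners. NFKB1 was at 77.4, 76.4 and 73.8 CPM in the JUN knockout and 75.6, 71.2 and 77.2 CPM in the double knockout. RELA was at 63.2, 66.3 and 71.9 CPM against 68.2, 65.4 and 72.5 CPM. REL was at 52.3, 46.5 and 49.1 CPM against 46.1, 50.5 and 45.6 CPM. In these 3 genes the libraries of both groups lay within a narrow common range, and the fold change was bounded closely. The 95% interval of the double to JUN knockout ratio was 0.87 to 1.11 for NFKB1, 0.89 to 1.18 for RELA and 0.84 to 1.11 for REL. RELB, the partner of p52 in the alternative pathway, was lower in level, at 9.32, 10.7 and 9.39 CPM against 7.93, 9.21 and 10.6 CPM. NFKB2 was the lowest subunit at 3.00, 3.01 and 4.08 CPM against 2.27, 3.68 and 3.19 CPM. The groups overlapped in both genes, and the log2 fold changes were -0.09 (SE 0.15) for RELB and -0.14 (SE 0.25) for NFKB2. Of the NFKB2 reads, 63.4% were on NFKB2-205, a transcript annotated as retaining an intron, and the protein-coding share was 8.63% to 51.5% over the libraries. By this estimated split the coding level of NFKB2 was lower than the gene sum. Its coding share also ranged more widely than that of RELA, where 92.9% to 96.3% of reads were on protein-coding transcripts. NFKB2 had only 58 to 109 reads per library, against 1745 to 2110 for RELA, so its share rests on few reads.

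The inhibitors act at different steps. NFKBIA encodes IkB-alpha, which retains the dimers and is resynthesised on activation, and it was at 34.0, 41.7 and 37.6 CPM in the JUN knockout and 35.8, 40.4 and 43.2 CPM in the double knockout. Its groups overlapped (log2 fold change 0.08, SE 0.11, 95% interval of the ratio 0.88 to 1.27). NFKBIE, which encodes IkB-epsilon, was at 20.6, 29.4 and 31.6 CPM against 23.8, 21.8 and 29.1 CPM, again with overlap (-0.12, SE 0.19). TNIP1, a ubiquitin-binding partner of A20, was at 81.1, 78.7 and 62.2 CPM against 85.7, 79.8 and 66.1 CPM. The double knockout library was the higher one in each of the 3 pairs of TNIP1, by a small amount, and the fold change was 0.06 (SE 0.14, edgeR adjusted p = 0.985).

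TNFAIP3 encodes A20, a ubiquitin-editing enzyme that ends NF-kB signalling, and lies on chromosome 6 at 137867188 to 137883312, plus strand (GRCh38). It was at 52.7, 46.4 and 38.4 CPM in JUN knockout replicates 1, 2 and 3 and at 42.2, 38.9 and 34.8 CPM in the double knockout. The double knockout library was lower in 3 of 3 pairs, while JUN knockout replicate 3 lay below double knockout replicates 1 and 2. The log2 fold change was -0.25 (SE 0.14, edgeR adjusted p = 0.902), and with the replicate number as a block the adjusted p was 0.432. Without JUN knockout replicate 1 the fold change was -0.13. NFKBIZ encodes IkB-zeta, a nuclear member of the family that acts on secondary response genes. Its values were 12.5, 17.5 and 18.8 CPM in the JUN knockout and 11.4, 14.1 and 15.1 CPM in the double knockout. It was also lower in 3 of 3 pairs, with overlapping groups (-0.27, SE 0.19). Its edgeR adjusted p was 0.934, and 0.488 with the block. The fold change was -0.12 with an offset for transcript length. Leaving out a library took it to -0.15 (JUN knockout replicate 3), -0.16 (double knockout replicate 1) or -0.42 (JUN knockout replicate 1). Neither gene passed the adjusted test in either fit.

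Among the signalling targets, TNFAIP2, a TNF-induced gene also known as M-Sec, was at 50.0, 38.8 and 45.1 CPM in the JUN knockout and 61.2, 41.1 and 63.1 CPM in the double knockout. It was higher in 3 of 3 pairs, although double knockout replicate 2 lay inside the JUN knockout range. The log2 fold change was 0.31 (SE 0.18, edgeR adjusted p = 0.918), and the adjusted p was 0.416 with the block. With an offset for transcript length it was 0.09, and leaving out a library took it to 0.20 (double knockout replicate 3) or 0.48 (double knockout replicate 2). TRAF1, an adaptor of TNF receptors, had few reads, at 1.46, 1.5 and 0.898 CPM against 1.41, 2.51 and 1.72 CPM. It was higher in 2 of 3 pairs, with a wide interval (0.54, 95% interval -0.22 to 1.30), and the estimate was 0.28 without double knockout replicate 2 and 0.34 without JUN knockout replicate 3. BIRC3 had 1 or 2 reads per library.

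TNF was the most abundant cytokine of the list, at 67.7, 93.5 and 89.0 CPM in the JUN knockout and 73.3, 70.4 and 89.2 CPM in the double knockout. The groups overlapped (-0.10, SE 0.15, 95% interval of the ratio 0.73 to 1.19). IL1RN, the secreted antagonist of the IL-1 receptor, was at 15.8, 16.3 and 14.2 CPM against 16.2, 15.2 and 16.7 CPM. Its 6 libraries were among the most alike of the list, and the ratio was bounded at 0.88 to 1.23. The agonist IL1B stayed between 0.599 and 1.07 CPM in all libraries, far below its antagonist (0.600 against 11.9 TPM, per length). IL1A and IL6 were silent.

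CXCL10 (IP-10), a chemokine for activated T cells and a target of both interferon and NF-kB signalling, had the largest difference of the list. It lies on chromosome 4 at 76021117 to 76023497, minus strand (GRCh38). Its level is under a mean of 1 CPM, and it is described in full because its values were seen to differ. It had 15, 55 and 38 reads in JUN knockout replicates 1, 2 and 3 and 11, 17 and 14 reads in the double knockout, or 0.536, 1.92 and 1.42 CPM against 0.430, 0.626 and 0.481 CPM. The double knockout library was lower in 3 of 3 pairs, but JUN knockout replicate 1 lay among the double knockout libraries, so the groups overlapped. The log2 fold change was -1.33 (SE 0.48, 95% interval of the ratio 0.18 to 0.87). Its unadjusted edgeR p was 0.0276, making CXCL10 the 1 gene of the 24 below 0.05, where 5.8% of all genes were, and its adjusted p was 0.842. The exact two-sided permutation test of its CPM gave p = 0.2, where 3 against 3 cannot go below 0.1. With the replicate block the estimate was -1.24 (unadjusted p = 0.00945, adjusted p = 0.367), and without JUN knockout replicate 2, its highest library, it was -0.93 (adjusted p = 1.0).

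The other expressed chemokines were CCL2 and CXCL8. CCL2 (MCP-1), which attracts monocytes, was at 16.7, 9.89 and 4.27 CPM in the JUN knockout and 11.4, 13.4 and 6.70 CPM in the double knockout. It varied 3.91-fold between its highest and lowest library, more than any other gene of the list with a mean of at least 1 CPM, and its group means were nearly equal (0.03, SE 0.48, 95% interval of the ratio 0.47 to 2.22). With the replicate block the estimate was 0.15, with an SE of 0.24. CXCL8 (IL-8), the neutrophil chemokine, was at 1.89, 2.52 and 2.21 CPM against 1.84, 1.73 and 2.47 CPM. Its groups overlapped as well (-0.13, SE 0.24).

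Of the surface proteins and enzymes, SOD2 was at 177, 214 and 194 CPM in the JUN knockout and 177, 213 and 182 CPM in the double knockout. The libraries of the same number lay close together, and the ratio was bounded at 0.82 to 1.17. Of the SOD2 reads, 57.2% were assigned to SOD2-214, a transcript annotated for nonsense-mediated decay, and the protein-coding share was 38.9% to 44.6% over the libraries. The split among transcripts is Salmon's estimate, and by it less than the gene sum can be read as coding mRNA. PLAUR was at 36.2, 31.8 and 37.5 CPM against 39.3, 29.4 and 35.7 CPM. CD83, a marker of activated dendritic cells, was at 5.29, 7.90 and 7.52 CPM against 7.73, 7.07 and 8.31 CPM. In both genes the groups overlapped (-0.02, SE 0.13 for PLAUR and 0.16, SE 0.19 for CD83). ICAM1, the adhesion ligand of leukocyte integrins, was at 38.0, 23.4 and 15.3 CPM in the JUN knockout and 37.0, 30.4 and 24.2 CPM in the double knockout. Its range was wider within a genotype than between the genotype means (0.25, SE 0.32, edgeR adjusted p = 0.969), and it was higher in the double knockout in 2 of 3 pairs.

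Pairing the libraries by number brought 5 of the 24 genes to an unadjusted p below 0.05 in edgeR (NFKBIZ, TNFAIP3, TNFAIP2, CXCL10 and ICAM1), where 9.9% of all genes were, and 0 to an adjusted p below 0.05. In 3 of 3 pairs 2 genes were higher (TNIP1 and TNFAIP2), where 18.0% of all genes were, and 3 lower (NFKBIZ, TNFAIP3 and CXCL10), where 15.3% of all genes were. Neither count of 3 of 3 pairs was above the share over all genes. The 5 of 24 with an unadjusted p below 0.05 were above the 9.9% of all genes, and 0 of them passed after adjustment. The median difference of the 24 within pairs 1, 2 and 3 was -0.03, -0.07 and 0.08 on the log2 scale with 0.5 CPM added, so the list as a group had no common direction.

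The levels were also compared between the replicate numbers. In the blocked edgeR fit the term for the number was called in 1 of the 24 genes, CCL5 (adjusted p = 0.0193), which is 4.17% of the 24 beside 2.42% of all genes. ICAM1 (adjusted p = 0.053) and CCL2 (0.103) did not pass. This term was examined after the values had been seen. CCL5 was highest in number 1 and lowest in number 3 in both genotypes, and so were ICAM1, TNFAIP3 and TNIP1. CCL2 was lowest in number 3 in both genotypes, but highest in number 1 in one and number 2 in the other. The order of the 3 numbers was the same in both genotypes for 7 of the 24 genes (NFKBIZ, TNFAIP3, TNIP1, CXCL10, CCL5, ICAM1 and SOD2), about the share over all genes tested (28.2%). ATF3 itself had this order too, highest in number 1 and lowest in number 3 (number term adjusted p = 0.0396). The summed level of the monocyte and macrophage markers was 157, 488 and 478 CPM in JUN knockout numbers 1, 2 and 3 and 247, 330 and 562 CPM in the double knockout, lowest in number 1 in each. LYZ carried most of it (99.5, 369 and 361 CPM against 136, 204 and 418 CPM). Not every marker had this pattern: S100A9 was highest in number 1 of the double knockout (10.6 CPM), and CSF1R was lowest in number 3 of the JUN knockout (19 CPM). Of these markers, CSF1R, LYZ, VCAN, S100A8 and S100A9 were expressed and FCGR3A was at 0 in every library. CD14 was close to absent, with 0 to 5 reads per library (at most 0.184 CPM). The part of the monocyte and macrophage markers in the levels of CCL5, ICAM1, TNFAIP3 and TNIP1 was not tested.

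**Figure D4:**
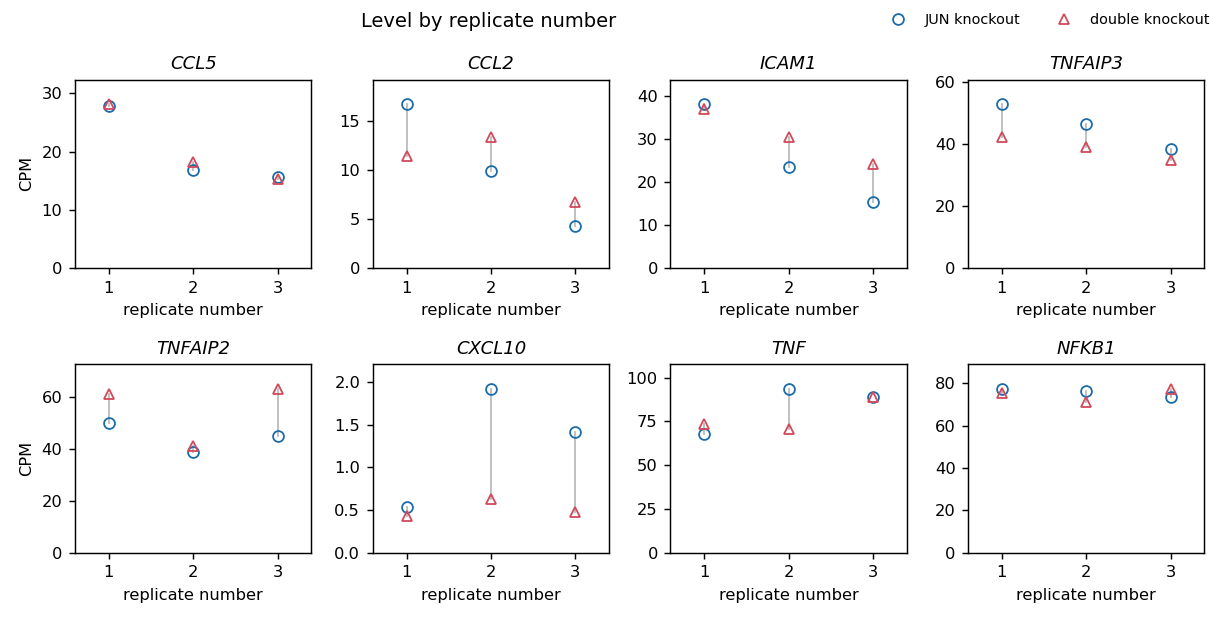
CPM (y axis, from 0) of 8 of the genes against the replicate number (x axis), with circles for the JUN knockout and triangles for the double knockout, and a line joining the libraries of a number. CCL5 goes from 27.8 and 28.1 CPM in number 1 to 15.6 and 15.2 CPM in number 3, while CXCL10 differs most within numbers 2 and 3.

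Upstream and beside these genes, 58 further genes of the pathway were examined: receptors, adaptors and ubiquitin ligases, kinases, inhibitors and deubiquitinases, and chromatin partners. Of the 53 tested, 29 were higher and 24 lower in the double knockout, with a median log2 fold change of 0.03, and 0 passed edgeR's adjusted test. In 3 of 3 pairs 13 of the 53 were higher and 4 lower, where 18.0% and 15.3% of all genes were. With the block, 8 of the 53 had an unadjusted edgeR p below 0.05, where 9.9% of all genes had, and 0 passed after adjustment. The groups did not overlap in 4 of the 53 genes that were higher and 2 that were lower, beside 6.25% and 5.94% of all genes. The genes with the lowest p were NFKBID, IRAK1 and IKBKB. NFKBID encodes IkB-NS, an atypical nuclear IkB, on chromosome 19 at 35887653 to 35902303, minus strand. It was at 32.3, 32.7 and 33.2 CPM in the JUN knockout and 19.5, 21.3 and 24.0 CPM in the double knockout. All double knockout libraries were below all JUN knockout libraries, whose 3 values were nearly equal. The log2 fold change was -0.60 (SE 0.10, 95% interval of the ratio 0.56 to 0.78), with an edgeR adjusted p of 0.589, and of 0.148 with the block. DESeq2 called it at an adjusted p of 0.000601. The exact permutation p of its CPM was 0.1, the smallest this design can give.

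IRAK1, a kinase that relays signals from Toll-like and IL-1 receptors, was at 181, 179 and 192 CPM in the JUN knockout and 238, 210 and 243 CPM in the double knockout. IKBKB, the IkB kinase subunit that phosphorylates IkB-alpha, was at 260, 227 and 207 CPM against 190, 189 and 185 CPM. The groups did not overlap in either gene, IRAK1 being higher (0.33, SE 0.09) and IKBKB lower (-0.30, SE 0.10) in the double knockout, each at an edgeR adjusted p of 0.795. Without JUN knockout replicate 1, IKBKB was at -0.20, and with the length offset IRAK1 was at 0.21. TLR2 and TLR4, receptors for bacterial lipids, are named because the number term called them (adjusted p = 0.0297 and 0.0354), as it did 2 of the 53 genes (3.77%) beside 2.42% of all genes. TLR2 was at 86.8, 111 and 159 CPM in the JUN knockout and 121, 136 and 180 CPM in the double knockout, highest in number 3, where CCL5 and ICAM1 were lowest. The double knockout library of TLR2 was higher in 3 of 3 pairs, with an edgeR adjusted p of 0.353 with the block.

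**Figure D5:**
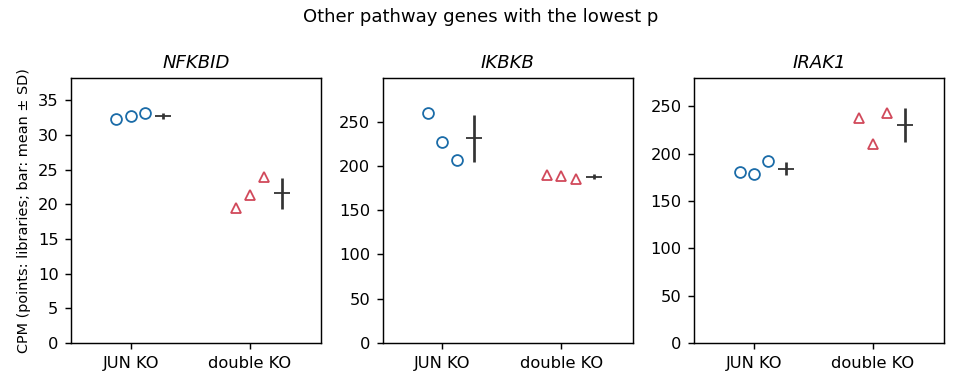
CPM (y axis, from 0) of the 3 further pathway genes with the lowest p, with 1 symbol per library and the mean ± SD of each group (n = 3). NFKBID falls at 19.5 to 24.0 CPM in the double knockout and 32.3 to 33.2 CPM in the JUN knockout, with no overlap, and none of the 3 passed edgeR's adjusted test.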

How the data were processed

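PolyA RNA of 6 EoL-1 libraries was sequenced. Per the submitters' processing notes, the authors used FastQC 0.11.9, Salmon 1.6.0 and the build hg38. Per the file headers, each deposited file lists 177456 transcripts with their estimated count and TPM. Transcripts were joined to GENCODE 29 by identifier, and 7517 outside the primary assembly by GENCODE's symbol table. This reached 174544 transcripts (98.4%). The other 2912 held 0.81% to 0.87% of reads and may include transcripts of these genes. Gene counts are sums of these estimated counts, rounded. Salmon shares reads among similar transcripts, so near-identical copies are uncertain singly. Within a genotype, the closest libraries (double knockout 1 and 2) differed by a chi-square of 11.7 per gene, where sampling noise gives about 1.

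The test was edgeR's quasi-likelihood test (edgeR 4.0.16, R 4.3.3; filterByExpr, TMM, group as single term, two-sided, Benjamini-Hochberg over 13105 genes), tested on simulated data. DESeq2 1.42.0 and limma 3.58.1 were alternatives. CPM was computed after TMM scaling. The numbers were taken as pairs: file names share a clone code within a number, and the deviations of same-numbered libraries from their group means had correlations of 0.38 (number 1), 0.15 (number 2) and 0.45 (number 3). Libraries of different numbers had correlations of -0.42 to 0.082. The deviations cancel within each group, so positive correlations within numbers lower those between numbers by construction. For number 2 the contrast was small: double knockout 2 had 0.15 with JUN knockout 2 and 0.082 with JUN knockout 1. The genes and lists were chosen with earlier results of these data known. Genes described in full were those with a mean of at least 1 CPM, and in the pathway list the 3 with the lowest p. CXCL10, IL1B, CCL3 and CCL22 (under 1 CPM) and TLR2 and TLR4 were named after their values were seen. NFKBIA's promoter was shown by rule. A marker gene on one of the lists is not reported here.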

Additional observations from a re-analysis of the deposited data

How the results depend on the processing

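No alternative edgeR setting called a gene of the list: RLE scaling, no low-count filter, at least 1 CPM in 3 libraries, a transcript-length offset, primary-assembly transcripts only (added after seeing the data), the replicate block and each left-out library or pair gave 0 calls over all genes. DESeq2 called 62 genes and limma-voom 1, none of them in the list. The replicate block gave 0 calls and changed no call. Of the further pathway genes, NFKBID was called by DESeq2 (adjusted p = 0.000601). The median of the list was -0.03 and stayed within its spread over pairs (SD 0.0777). Fewer silent entries were counted under 3 reads (51 of 210) and more under 1 CPM (82), against 66. Of 455 alternative values for 27 genes, 407 kept direction and call, 47 changed sign without a call and 1 gained a call, so a sign near 0 should not be read. Under the length offset the sign changed in NFKB1 (0.01), RELA (-0.11), IL1B (0.21), PLAUR (0.00) and SOD2 (0.11), and under limma-voom in CCL22 (0.05); the cause was not tested. Leaving out libraries changed the sign in these genes, with the log2 fold change ranging from -0.07 to 0.01 in NFKB1, -0.38 to 0.03 in NFKB2, -0.15 to 0.00 in REL, -0.01 to 0.09 in RELA, -0.22 to 0.01 in RELB, -0.29 to 0.01 in NFKBIE, -0.05 to 0.16 in TNIP1, -0.27 to 0.12 in IL1B, -0.03 to 0.12 in IL1RN, -0.23 to 0.04 in TNF, -0.31 to 0.06 in CXCL8, -0.34 to 0.57 in CCL2, -0.27 to 0.34 in CCL5, -0.48 to 0.48 in CCL22, -0.01 to 0.66 in ICAM1, -0.01 to 0.32 in CD83, -0.11 to 0.09 in PLAUR and -0.12 to 0.03 in SOD2. CXCL10 was negative throughout, at -0.93 once JUN knockout replicate 2 was dropped and -1.70 once JUN knockout replicate 1 was. Depth limits the 11 untested genes, with at most 12 reads.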

Other observations

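Copies outside the primary assembly matter beyond CCL5. With primary-assembly transcripts alone, 46 genes were listed at 0 reads in at least 1 library while another held 100 or more, and with the copies added 32 were. Which of those 32 rest on transcripts not matched here was not tested.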
